A study of Mus musculus with 6 samples.

Results

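Conjugation enzymes of the liver were followed across the 3 groups of mice of this study: the UDP-glucuronosyltransferases (UGT), the sulfotransferases (SULT) and the glutathione S-transferases (GST). A probe set was taken where its gene symbol, or every symbol of a probe set naming several genes, began with Ugt1, Ugt2, Ugt3, Sult, Gsta, Gstm, Gstp, Gstt, Gstk, Gsto or Gstz, or was Mgst1, Mgst2 or Mgst3. This gave 58 of the 45037 probe sets tested, naming 46 of the 22527 genes with a symbol on the array, and 11 of these genes had more than 1 probe set. There were 10 probe sets of Ugt2, 3 of Ugt3, 14 of Sult, 4 of Gsta, 12 of Gstm, 4 of Gstt, 3 of Gsto and 5 of Mgst, and 1 each of Gstp, Gstk and Gstz. No probe set named Ugt1 genes alone, because the 3 that read the Ugt1a genes also list unnamed loci, and a further probe set names Gsta1 and Gsta2 together with Gm3776. These 4 lie outside the rule and are described separately.

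Conjugation is the step in which the liver joins a polar group to drugs, hormones, bilirubin or products of oxidation, so that they can leave in bile or urine. UGT enzymes in the endoplasmic reticulum transfer glucuronic acid from UDP-glucuronic acid, and SULT enzymes in the cytosol transfer sulfate from PAPS. GST enzymes couple glutathione to electrophiles, among them the aldehydes left by oxidised lipids. Flavonols such as isorhamnetin are themselves conjugated by UGT and SULT enzymes in mammals.

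The mice were male C57BL/6J, 6 weeks old on arrival and 8 per group, and their liver RNA was hybridised to 6 arrays of the Affymetrix MG-430 PM type, 2 for each group. NASH+ISO mice and NASH mice both ate a diet with 60% of calories from fat from day 0 to day 24, were injected 4 times with CCl4 (0.1 ml/kg, day 14 to day 24) and 5 times with T0901317 (2.5 ml/kg, day 20 to day 24), an agonist of the LXR receptors. NASH+ISO mice also received isorhamnetin by mouth every day from day 11 to day 24 (50 mg/kg), and NASH mice its vehicle. CTL mice ate chow and received the vehicles of all agents. The effects of the diet, CCl4 and T0901317 cannot be told apart in this design, and mice given isorhamnetin without them were not analysed here. Technical repeats is what the labels call both arrays of a group, without saying how many mice each stands for. Every SD, SE and p-value therefore measures the spread between arrays, which may be technical.

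Values are log2 signals on the scale of robust multichip averaging (RMA), a difference of 1 is a 2-fold change, and an adjusted p under 0.05 over all probe sets counted as passed. Array medians lay between 3.46 and 3.50, and the median difference between the arrays within a group was 0.0472 to 0.0529. The highest value of the 17 tag control probe sets, which have no mouse target, was 2.90 and served as background level. Of the 58 probe sets, 47 had a mean above it and 11 did not. Hepatocyte markers such as Alb and Ttr were present. The log2 of their summed signal was 14.55 to 14.56 in NASH+ISO, 14.54 in NASH and 14.53 to 14.55 in CTL. Of the 6 hepatocyte markers measured, 1 was lower (Ass1, -0.54) and 5 did not pass in NASH against CTL. NASH+ISO against NASH gave 2 higher (Ass1 by 0.39), 2 lower and 2 that did not pass. NASH+ISO against CTL gave 1 higher, 2 lower and 3 that did not pass. The 5 stellate cell markers had a summed signal of 7.77 to 7.79 in NASH+ISO, 8.43 to 8.46 in NASH and 7.50 to 7.53 in CTL. For the 4 macrophage markers measured the sum was 8.37 to 8.38 in NASH+ISO, 8.56 to 8.59 in NASH and 8.88 to 8.91 in CTL, and for the 5 cholangiocyte markers 8.82 to 8.83 in NASH+ISO, 8.50 to 8.53 in NASH and 7.57 to 7.58 in CTL. These sums are weighted to their brightest genes. Between NASH and CTL, 1 of the macrophage markers passed (Csf1r, -0.45), and of the cholangiocyte markers 2 were higher (Spp1, 1.14, and Sox9, 0.66), 1 lower (Krt19, -0.24) and 2 did not pass. Between NASH+ISO and CTL, 3 macrophage markers were lower and 0 higher, and 3 cholangiocyte markers were higher and 1 lower. The 4 endothelial markers gave 7.65 to 7.66 in NASH+ISO, 7.01 to 7.05 in NASH and 7.02 to 7.09 in CTL. Between NASH and CTL, 1 of them was higher (Lyve1, 0.72), 1 lower (Stab2, -0.48) and 2 did not pass. Between NASH+ISO and CTL, 2 endothelial markers were higher (Lyve1, 1.67, and Kdr, 0.32), 0 lower and 2 did not pass. NASH+ISO against NASH gave 3 of them higher, 0 lower and 1 that did not pass. Of the stellate cell markers, 3 were higher, 1 lower (Lrat, -0.26) and 1 did not pass in NASH against CTL. In NASH+ISO against CTL, 2 stellate cell markers were higher (Acta2 by 1.29), 1 lower and 2 did not pass. Krt7 of cholangiocytes was at or below background. The part of these cell types in the results was not tested, and in whole liver fewer cells of a type and less RNA per cell cannot be told apart.

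The families moved in different directions. Between NASH and CTL, Gstm genes were upregulated while most Ugt2, Ugt3 and Gsta probe sets were downregulated, and between NASH+ISO and NASH the probe sets of these 4 families that passed were all lower (7 of Ugt2, 3 of Ugt3, 4 of Gsta and 6 of Gstm), apart from 1 of Gstm that was higher under quantile normalization. In NASH+ISO against NASH, 10 of the 58 probe sets were higher, 23 lower and 25 did not pass, beside 19.5% higher and 17.7% lower over all probe sets. The members called lower made up 39.7% and those called higher 17.2%, and the median difference was -0.04, against 0.02 over all probe sets. Of the 47 members above background, 14.9% were higher and 46.8% lower, beside 23.8% and 24.1% of all probe sets above background. With each array centred on its median, 9 members were higher and 25 lower, while all probe sets shifted to 6711 higher and 9473 lower, against 8795 and 7957 without that step. No member passed at 2-fold in either direction, where 0.238% of all probe sets were called higher and 0.533% lower.

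NASH+ISO set against CTL gave 16 members higher, 25 lower and 17 that did not pass, beside 21.2% higher and 21.5% lower of all probe sets. That is 27.6% and 43.1% of the members, with a median of -0.03 (all probe sets -0.01). Of the 47 members above background, 29.8% were higher and 51.1% lower, beside 28.1% and 26.0% of all probe sets above background. The share called higher was thus close to that of all probe sets above background. At 2-fold, 5 were higher (3 without CTL replicate 1) and 9 lower, where the whole array gave 1.35% and 0.79%. NASH set against CTL gave 16 members higher, 28 lower and 14 that did not pass. This is 27.6% and 48.3% of them, beside 22.0% and 27.2% of all probe sets. Of the 47 members above background, 34.0% were higher and 53.2% lower, beside 29.9% and 31.6% of all probe sets above background. With each array centred on its median, 17 members were higher and 27 lower, while all probe sets shifted to 11488 higher and 9640 lower, against 9924 and 12228 without that step. The median was -0.10, against -0.04 over all. At 2-fold, 5 were higher and 3 lower, where all probe sets gave 2.49% and 1.11%. Each pair of comparisons shares a group of arrays, so their values stand side by side and are not independent of each other.

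**Figure D1:**
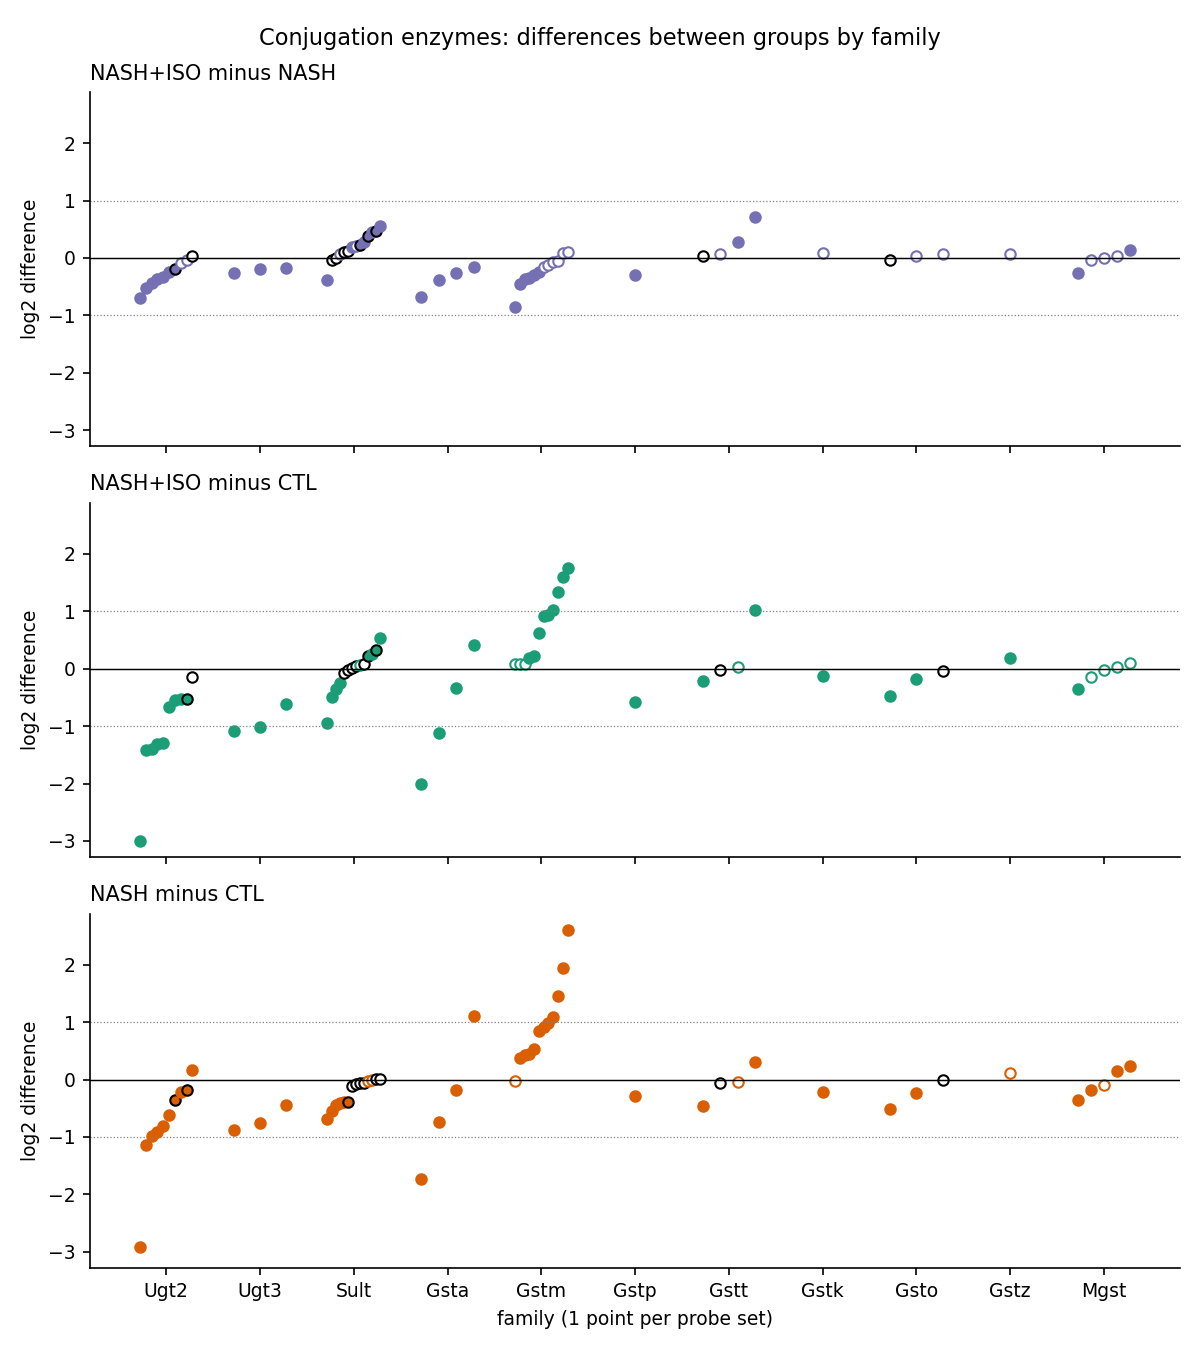
Log2 differences of the 58 conjugation enzyme probe sets by family, for NASH+ISO minus NASH, NASH+ISO minus CTL and NASH minus CTL (1 point per probe set, sorted within a family, dotted lines at 2-fold). Filled points passed at adjusted p, black outlines mark probe sets with a mean at or below background. Gstm points lie above 0 in both comparisons with CTL apart from 1 near 0, and nearly all Ugt2 and Ugt3 points lie below.

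Ugt2 genes were downregulated in both diseased groups. Against CTL, 9 of the 10 probe sets were lower and 0 higher in NASH+ISO (median -0.97, 5 of them at 2-fold), and 9 lower and 1 higher in NASH (median -0.71, 2 at 2-fold). In NASH+ISO against NASH, 7 were lower, 0 higher and 3 did not pass (median -0.29). With quantile normalization on top of RMA, no Ugt2 probe set was called higher in any of the comparisons.

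Ugt2b38 had the largest difference of any member. Its signal was 2.91 and 3.04 on the NASH+ISO arrays, 3.0 and 3.13 on the NASH arrays and 6.04 and 5.91 on the CTL arrays. Both diseased groups overlapped with each other just above the background level, and both lay far under CTL. The difference was -3.0 in NASH+ISO (SE 0.0719, adjusted p = 2.94e-07) and -2.91 in NASH (SE 0.0719, adjusted p = 2.29e-07), both against CTL. The NASH+ISO and NASH values stood close to the background level of 2.90. NASH+ISO and NASH differed by -0.09 (adjusted p = 0.371).

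Ugt2b5, Ugt2b1, Ugt2b35 and Ugt2a3 showed a graded order, with CTL highest, NASH next and NASH+ISO lowest on every array. Ugt2b5 read 10.18 and 10.18 in NASH+ISO, 10.68 and 10.71 in NASH, and 11.50 and 11.50 in CTL. It was lower by 0.52 in NASH+ISO than in NASH (-0.52, SE 0.0375, adjusted p = 8.4e-05), and against CTL it differed by -1.32 in NASH+ISO (adjusted p = 6.01e-07) and -0.81 in NASH (adjusted p = 3.28e-06). Ugt2b1 read 8.41 and 8.42 in NASH+ISO, 8.86 and 8.83 in NASH, and 9.83 and 9.82 in CTL. These are enzymes of the endoplasmic reticulum. The differences of Ugt2b1 were -0.43 for NASH+ISO against NASH (SE 0.0379, adjusted p = 0.000181), -1.41 for NASH+ISO against CTL and -0.98 for NASH against CTL. Ugt2b35 read 8.80 and 8.74 in NASH+ISO, 9.14 and 9.14 in NASH, and 10.05 and 10.07 in CTL, with differences of -0.37 for NASH+ISO against NASH, -1.29 for NASH+ISO against CTL and -0.92 for NASH against CTL. Ugt2a3, whose human counterpart conjugates bile acids, read 8.69 and 8.70 in NASH+ISO, 8.96 and 8.94 in NASH, and 10.07 and 10.11 in CTL. It was 2.63-fold lower in NASH+ISO than in CTL (adjusted p = 5.61e-07) and 2.21-fold lower in NASH than in CTL (adjusted p = 8.42e-07).

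The order was not shared by the whole family. Ugt2b36, named here after its values were seen, was lower than CTL in both diseased groups, at -0.66 in NASH+ISO and -0.62 in NASH, and NASH+ISO and NASH differed by -0.03 (adjusted p = 0.54). The 2 probe sets of Ugt2b34, named here after their values were seen, disagreed in NASH against CTL. 1427960_PM_at was higher by 0.17 (adjusted p = 0.01) and 1427961_PM_s_at lower, at -0.21 (adjusted p = 0.00391). NASH+ISO lay below NASH on both, at -0.70 and -0.33. The probe sets of Ugt2b37 and of Ugt2a1 with Ugt2a2 had means below background. Ugt2 genes are close copies of each other, so a probe set may read RNA of a neighbour.

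Promoter stretches of 3 of these genes, which all fell, are shown: Ugt2b38 with the largest fall, Ugt2b5 as its near copy, and Ugt2a3 as the Ugt2 gene whose promoter holds HNF1 letters. Each runs from 150 bases before to 50 bases after the RefSeq gene start in GRCm38.p6, on the minus strand of chromosome 5. Capitals mark every match, on either strand, to the motifs searched: the C/EBP letters TTGCNNAA once in Ugt2b5 and once in Ugt2a3, and the HNF1 half-site letters GTTAAT at 2 places in Ugt2a3. Ugt2b38 had no match to the 6 motifs searched.
Ugt2b38 (chr5:87424154-87424353): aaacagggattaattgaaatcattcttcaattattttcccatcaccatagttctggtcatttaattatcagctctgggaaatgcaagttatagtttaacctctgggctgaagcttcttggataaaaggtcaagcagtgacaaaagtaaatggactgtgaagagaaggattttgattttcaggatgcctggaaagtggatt
Ugt2b5 (chr5:87140291-87140490): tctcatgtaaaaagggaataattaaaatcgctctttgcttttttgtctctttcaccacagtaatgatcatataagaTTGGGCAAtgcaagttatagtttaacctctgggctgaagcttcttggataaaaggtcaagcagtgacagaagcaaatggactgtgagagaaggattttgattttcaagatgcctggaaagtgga
Ugt2a3 (chr5:87337146-87337345): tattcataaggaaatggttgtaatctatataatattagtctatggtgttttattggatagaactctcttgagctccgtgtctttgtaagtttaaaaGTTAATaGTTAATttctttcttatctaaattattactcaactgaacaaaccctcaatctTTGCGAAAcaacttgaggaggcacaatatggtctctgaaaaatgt

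The stretches of Ugt2b38 and Ugt2b5 shared an unbroken run of 62 bases, while the longest run shared by Ugt2b38 and Ugt2a3 was 7 bases. In the full window of 250 bases before to 50 bases after the start, C/EBP letters occurred in 5 of the 10 Ugt2 promoters (Ugt2a2, Ugt2a3, Ugt2b1, Ugt2b36 and Ugt2b5), against 10.8% of all 32851 mouse promoters. HNF1 letters occurred in 1 of 10, against 7.1% of all. A match is a run of letters and no evidence of binding.

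Ugt3 probe sets followed the graded order too, with CTL highest. In humans, UGT3 enzymes use UDP sugars other than UDP-glucuronic acid. Ugt3a1 (1451373_PM_at) read 6.37 and 6.39 in NASH+ISO, 6.58 and 6.57 in NASH, and 7.48 and 7.43 in CTL, and was 2.11-fold lower in NASH+ISO than in CTL (adjusted p = 1.98e-06). Its second probe set (1424493_PM_s_at) gave -1.02 for that comparison (-0.992 without CTL replicate 1 and -0.970 without NASH+ISO replicate 2). Between NASH+ISO and NASH, the call of 1451373_PM_at was lost under quantile normalization (-0.12, adjusted p = 0.0529) and that of 1424493_PM_s_at without moderation (-0.26, adjusted p = 0.0569). Ugt3a2, the other gene of the family, differed by -0.17 between NASH+ISO and NASH (SE 0.0378, adjusted p = 0.0111), by -0.61 between NASH+ISO and CTL and by -0.44 between NASH and CTL. Its difference between NASH+ISO and NASH lost its call without NASH replicate 1 and without NASH replicate 2 (adjusted p = 0.0533 and 0.0578).

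The 3 probe sets that read the Ugt1a genes, which include the bilirubin-conjugating Ugt1a1, lay close together across the groups. Their means were 10.81, 11.03 and 9.78 in NASH+ISO, 10.77, 11.06 and 9.82 in NASH, and 10.89, 11.02 and 9.90 in CTL. Of their 9 differences, 1424783_PM_a_at in NASH against CTL (-0.11, adjusted p = 0.0387) alone passed. The Ugt1a genes share exons, so single genes could not be told apart.

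Genes that supply the glucuronic acid donor were read from a list of 4. Both comparisons with CTL gave 3 lower and 0 higher, and NASH+ISO against NASH gave 2 lower and 1 higher. The counts of this and later lists stand beside the shares of all probe sets above background. These were 23.8% higher and 24.1% lower in NASH+ISO against NASH. Against CTL they were 28.1% and 26.0% in NASH+ISO, and 29.9% and 31.6% in NASH. All 54 list genes gave 22.2% and 42.6%, 37.0% and 48.1%, and 44.4% and 42.6% in these comparisons. Ugp2, which makes UDP-glucose, was at -0.88 in NASH+ISO (adjusted p = 3.87e-06) and -0.83 in NASH (adjusted p = 3.02e-06), both against CTL. Slc35d1, which carries UDP-glucuronic acid into the endoplasmic reticulum, was at -0.78 and -0.53 in these comparisons. Slc35d2, another carrier of UDP sugars, was at -0.07 in NASH+ISO (adjusted p = 0.203) and -0.24 in NASH (adjusted p = 0.00204). Gusb, which splits glucuronides again, was higher than CTL by 0.39 in NASH+ISO and 0.58 in NASH.

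**Figure D2:**
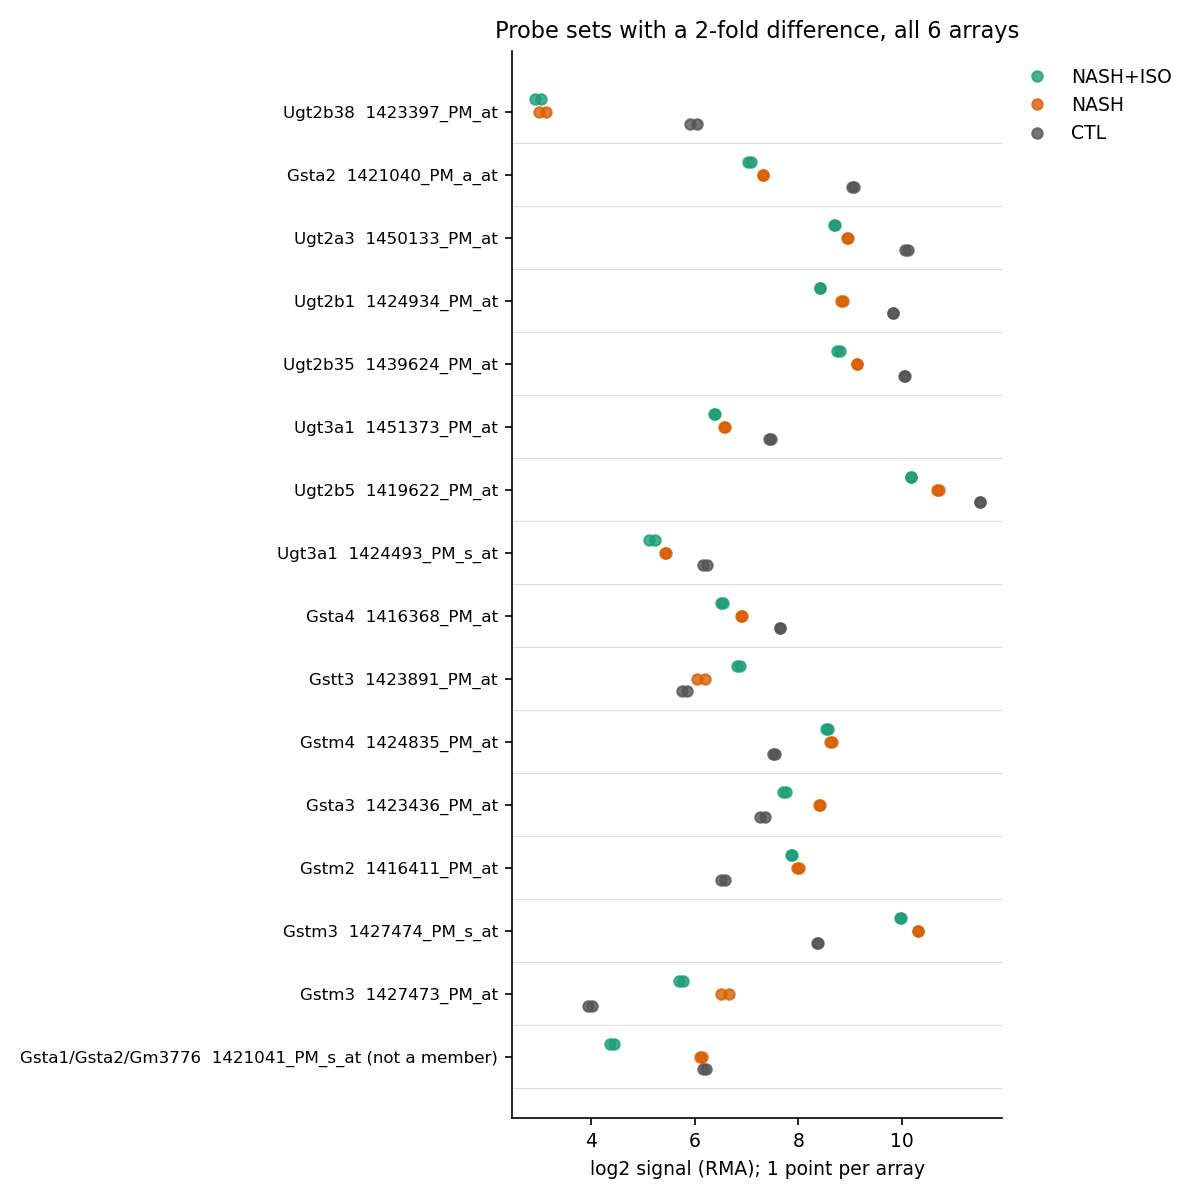
Log2 signal on each of the 6 arrays for the 15 member probe sets that passed at 2-fold in any comparison, ordered by their NASH minus CTL difference, and for the probe set of Gsta1, Gsta2 and Gm3776 (1 point per array; NASH+ISO above NASH above CTL in each row). The 2 arrays of a group lie close together, and Ugt2b38 reads 2.91 to 3.13 in NASH+ISO and NASH, against 5.91 to 6.04 in CTL.

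Sulfotransferases had smaller median differences from CTL than the Ugt2 genes. Of 14 Sult probe sets, 7 were higher and 1 lower in NASH+ISO against NASH (median 0.20). Against CTL, NASH+ISO had 4 higher and 4 lower (median 0.03) and NASH 0 higher and 6 lower (median -0.09). No Sult probe set passed at 2-fold. Means of 7 of the 14 were at or below background, among them those of Sult1e1, the estrogen sulfotransferase, and Sult2a2, so the counts include differences within background. For the 7 above background, NASH+ISO against NASH gave 4 higher and 1 lower (median 0.20). Against CTL these 7 gave 2 higher and 4 lower in NASH+ISO (median -0.25), and 0 higher and 5 lower in NASH (median -0.41).

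Sult1d1, which conjugates catecholamines in the mouse, read 9.39 and 9.40 in NASH+ISO, 8.94 and 8.93 in NASH, and 9.33 and 9.33 in CTL on 1448973_PM_at. NASH lay below the other groups on both arrays, by 0.39 against CTL (-0.39, adjusted p = 0.000117), and NASH+ISO was higher than NASH by 0.46 (SE 0.0372, adjusted p = 0.000129). NASH+ISO and CTL differed by 0.07 (adjusted p = 0.174). Its other probe set, 1418138_PM_at, gave another pattern, with NASH+ISO above both groups (0.55 against NASH, 0.53 against CTL) and -0.02 between NASH and CTL (adjusted p = 0.641). Sult1b1, which conjugates thyroid hormones, was lowest in NASH+ISO, with 4.48 and 4.45 in NASH+ISO, 4.87 and 4.83 in NASH, and 5.38 and 5.42 in CTL. It fell by 0.39 in NASH+ISO against NASH (adjusted p = 0.000384), and set against CTL by 0.94 in NASH+ISO and by 0.55 in NASH.

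Genes that make and clear PAPS, a list of 8, were mostly higher than in CTL. In NASH+ISO 6 were higher and 1 lower, and in NASH 7 were higher and 0 lower, while NASH+ISO against NASH gave 3 higher and 3 lower. Papss2, which makes PAPS, was higher than CTL by 1.19 in NASH+ISO (adjusted p = 1.1e-06) and by 0.97 in NASH (adjusted p = 1.61e-06). Bpnt1, which breaks down the by-product of sulfation, was higher than CTL by 0.70 in NASH+ISO and by 1.19 in NASH. Slc26a1, a sulfate transporter, was higher by 0.98 and 0.59 in these comparisons.

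Alpha-class GST genes split. Gsta2 read 7.02 and 7.09 in NASH+ISO, 7.31 and 7.32 in NASH, and 9.07 and 9.04 in CTL. It was 3.99-fold lower in NASH+ISO than in CTL (adjusted p = 1.9e-07), 3.34-fold lower in NASH than in CTL (adjusted p = 2.15e-07), and lower by 0.26 in NASH+ISO than in NASH (-0.26, adjusted p = 0.00304). Gsta4, which conjugates the lipid aldehyde hydroxynonenal, followed the same order with 6.55 and 6.51 in NASH+ISO, 6.92 and 6.90 in NASH, and 7.65 and 7.65 in CTL. Its difference from CTL was -1.12 in NASH+ISO (adjusted p = 1.34e-06) and -0.74 in NASH (adjusted p = 5.26e-06).

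The probe sets of Gsta3 disagreed in direction. 1423436_PM_at read 7.76 and 7.71 in NASH+ISO, 8.42 and 8.40 in NASH, and 7.26 and 7.36 in CTL, and was higher in NASH than in CTL by 1.10 (SE 0.0481, adjusted p = 2.49e-06; 0.981 under quantile normalization). 1423437_PM_at was lower in that comparison by 0.18 (-0.18, adjusted p = 0.00626). NASH+ISO lay below NASH on both, at -0.68 and -0.16, but the second difference did not pass without either NASH replicate, without either NASH+ISO replicate or under quantile normalization. The probe set naming Gsta1, Gsta2 and Gm3776 read 4.37 and 4.45 in NASH+ISO, 6.11 and 6.14 in NASH, and 6.16 and 6.22 in CTL. It was lower in NASH+ISO, at -1.71 against NASH (SE 0.0466, adjusted p = 2.89e-06) and -1.78 against CTL, while NASH and CTL differed by -0.07 (adjusted p = 0.284).

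All 7 mu-class genes of the cluster on chromosome 3, Gstm1 to Gstm7, were higher in NASH than in CTL on at least 1 probe set. Of 12 Gstm probe sets, 11 were higher and 0 lower in NASH against CTL (median 0.88), and 9 were higher and 0 lower for NASH+ISO against CTL (median 0.77), with 4 at 2-fold in each. The probe set that did not pass in NASH against CTL was the second of Gstm7, at -0.03 (adjusted p = 0.795). Between NASH+ISO and NASH, 6 were lower and 0 higher (median -0.20). With quantile normalization 1 was higher in NASH+ISO than in NASH.

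Gstm3 had the largest rise. On 1427473_PM_at it read 5.77 and 5.69 in NASH+ISO, 6.50 and 6.66 in NASH, and 4.01 and 3.94 in CTL. NASH+ISO was 3.39-fold higher than CTL (adjusted p = 1.75e-06) and NASH 6.10-fold higher (adjusted p = 2.2e-07), with NASH+ISO lower than NASH by 0.85 (-0.85, SE 0.0636, adjusted p = 9.66e-05). The other probe set, 1427474_PM_s_at, gave 3.01-fold for NASH+ISO and 3.85-fold for NASH against CTL, and NASH+ISO was 1.28-fold lower than NASH (adjusted p = 0.000433). Gstm2 read 7.88 and 7.86 in NASH+ISO, 8.02 and 7.97 in NASH, and 6.50 and 6.59 in CTL. It was higher than CTL by 1.33 in NASH+ISO and by 1.45 in NASH, while NASH+ISO and NASH differed by -0.12 (adjusted p = 0.0791). Gstm4 was higher than CTL by 1.02 in NASH+ISO and 1.09 in NASH (0.978 and 0.986 under quantile normalization, and 0.999 in NASH+ISO without CTL replicate 1 or without NASH+ISO replicate 1), and NASH+ISO and NASH differed by -0.07 (adjusted p = 0.226). Gstm1 rose less: 1416416_PM_x_at read 11.11 and 11.06 in NASH+ISO, 11.55 and 11.51 in NASH, and 10.99 and 11.00 in CTL. Its difference was -0.45 between NASH+ISO and NASH (adjusted p = 0.00022), 0.09 between NASH+ISO and CTL (adjusted p = 0.132) and 0.54 between NASH and CTL (adjusted p = 3.82e-05). In NASH+ISO against CTL, 1425626_PM_at and 1425627_PM_x_at of Gstm1 passed, at 0.22 and 0.19 (adjusted p = 0.0228 and 0.0109). There 1448330_PM_at did not pass (0.09, adjusted p = 0.0874). Between NASH+ISO and NASH these 3 gave -0.16 (adjusted p = 0.0727), -0.24 and -0.36, and the last 2 passed. Gstm genes are near copies, so cross-reading between their probe sets cannot be told from separate changes.

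Promoter stretches are shown for Gstm3, which had the largest rise, and for Gstm5 and Gstm7, chosen because they were the Gstm genes whose promoters hold the letters TGACNNNGC. They run from 150 bases before to 50 bases after the RefSeq gene start in GRCm38.p6 on chromosome 3, Gstm5 on the plus strand and the others on the minus strand. Capitals mark every match, on either strand, to the motifs searched: TGACNNNGC, the core letters of the antioxidant response element to which NRF2 binds, at position -42 from the start in Gstm5 and at -129 in Gstm7, and the TATA box letters TATAAA at position 40 in Gstm5. Gstm3 had none of the 6 motifs.
Gstm3 (chr3:107969125-107969324): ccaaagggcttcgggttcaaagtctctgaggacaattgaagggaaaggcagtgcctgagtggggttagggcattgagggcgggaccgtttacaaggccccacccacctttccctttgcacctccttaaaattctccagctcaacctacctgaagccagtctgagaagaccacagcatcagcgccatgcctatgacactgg
Gstm5 (chr3:107895704-107895903): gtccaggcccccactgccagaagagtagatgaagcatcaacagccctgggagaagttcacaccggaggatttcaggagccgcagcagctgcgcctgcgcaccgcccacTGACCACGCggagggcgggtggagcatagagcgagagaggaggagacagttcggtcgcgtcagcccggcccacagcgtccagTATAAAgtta
Gstm7 (chr3:107931565-107931764): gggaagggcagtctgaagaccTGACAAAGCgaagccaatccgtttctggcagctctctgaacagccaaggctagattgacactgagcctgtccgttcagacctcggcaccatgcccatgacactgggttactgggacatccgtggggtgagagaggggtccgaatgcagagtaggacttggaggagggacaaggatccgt

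TGACNNNGC letters occurred in 2 of the 12 Gstm promoters (16.7%) and in 12.4% of all 32851 promoters, and in 4 of 52 promoters of the conjugation enzymes. The other motifs were the HNF1 half-site, C/EBP, STAT5 (TTCNNNGAA), HNF4 (CAAAGTCCA) and the TATA box (TATAAA), which stood in 5, 10, 4, 1 and 10 of the 52 promoters, against 7.1%, 10.8%, 8.3%, 0.475% and 13.6% of all promoters. No match of 1 motif overlapped a match of another in these promoters. Gstm3, with the largest rise, showed no such match here, which says only that the letters are not in this window.

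**Figure D3:**
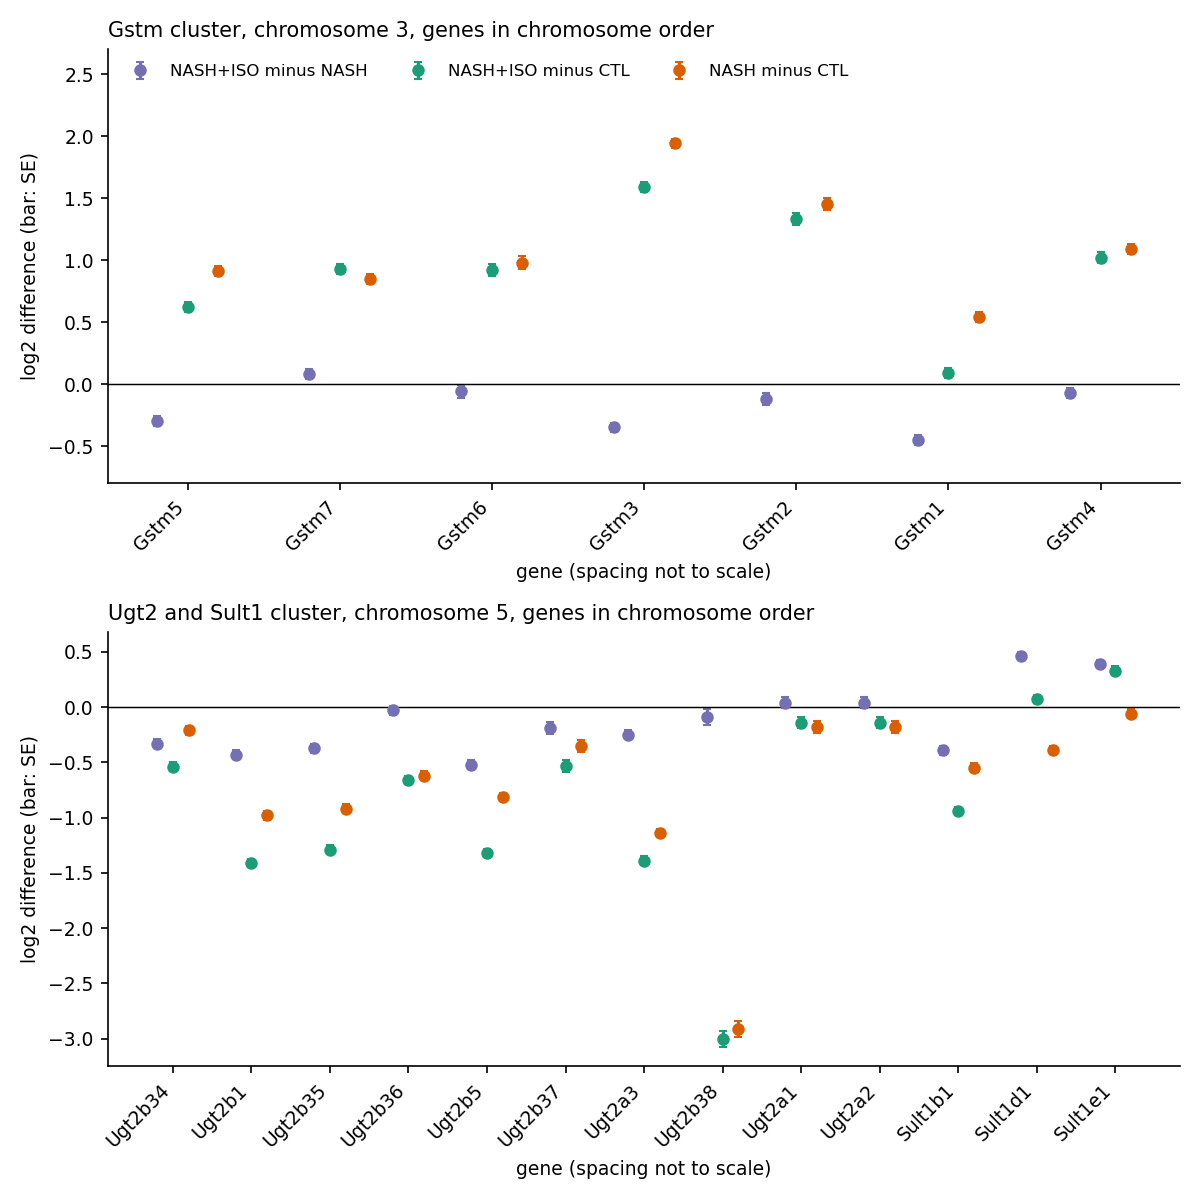
Log2 differences (points, with SE bars) of the 7 Gstm genes on chromosome 3 and of 13 genes on chromosome 5, in chromosome order. The 13 are the Ugt2 genes with Sult1b1, Sult1d1 and Sult1e1 (1 probe set per gene, spacing not to scale). All 7 Gstm genes lie above 0 in NASH minus CTL, and on chromosome 5 Ugt2b38 lies lowest, at -3.0 in NASH+ISO minus CTL.

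The Gstm genes form an unbroken run of 7 on chromosome 3, with 0 other protein-coding genes between them. In chromosome order they were Gstm5, Gstm7, Gstm6, Gstm3, Gstm2, Gstm1 and Gstm4, and NASH minus CTL was 0.91, 0.85, 0.98, 1.94, 1.45, 0.54 and 1.09 for these genes. The Ugt2 genes, with Sult1b1, Sult1d1 and Sult1e1, form a run of 13 on chromosome 5, also with 0 other protein-coding genes between. In that run the Ugt2 genes from Ugt2b34 to Ugt2b38 were lower in NASH+ISO than in CTL (-0.53 to -3.0), and Sult1e1, at the end, was higher by 0.33 but at or below background.

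Among the remaining GST families, Gstt3 was the 1 member that passed at 2-fold, by 1.03 in NASH+ISO against CTL, and it fell short of 2-fold without CTL replicate 1 (0.974), without NASH+ISO replicate 2 (0.997) and under quantile normalization (0.994). Gstp1 was lower in both diseased groups, with 11.52 and 11.55 in NASH+ISO, 11.84 and 11.84 in NASH, and 12.12 and 12.12 in CTL, and a difference of -0.58 for NASH+ISO and -0.28 for NASH against CTL (adjusted p = 2.44e-05 and 0.000696). Gstt3 ran the other way and was higher in NASH+ISO than in NASH by 0.72 (SE 0.0634, adjusted p = 0.000195). It read 6.81 and 6.87 in NASH+ISO, 6.05 and 6.20 in NASH, and 5.76 and 5.86 in CTL, so that NASH+ISO was 2.04-fold higher than CTL. Gstt1, which conjugates small halogenated compounds, had its lowest values in NASH, with 9.78 and 9.76 in NASH+ISO, 9.51 and 9.51 in NASH, and 9.99 and 9.97 in CTL. Gsto1, an omega-class enzyme, was lower than CTL by nearly the same amount in both diseased groups, at -0.47 in NASH+ISO and -0.51 in NASH on 1456036_PM_x_at. Its other probe set, 1416531_PM_at, gave smaller differences, at -0.18 and -0.24. Gstk1 was at -0.12 in NASH+ISO and -0.21 in NASH against CTL, with the first not passing when any single array was left out (adjusted p = 0.0635 to 0.141). Gstz1, which acts in tyrosine breakdown, was higher in NASH+ISO than in CTL by 0.18 (adjusted p = 0.00834). The microsomal Mgst1 (1415897_PM_a_at) was higher in NASH than in CTL by 0.14 (adjusted p = 0.0187), but not without CTL replicate 1, NASH replicate 1 or NASH replicate 2 (adjusted p = 0.0619 to 0.0894). NASH+ISO and CTL differed on it by 0.10 (adjusted p = 0.0675), which passed under 6 of the alternatives, such as quantile normalization (0.13, adjusted p = 0.0377). Mgst3 (1448300_PM_at) was lower than CTL by 0.35 in NASH+ISO and 0.36 in NASH, and NASH+ISO and NASH differed by 0.00 (adjusted p = 0.98). The other probe set of Mgst3, 1450563_PM_at, was at -0.14 in NASH+ISO (adjusted p = 0.0542) and -0.18 in NASH (adjusted p = 0.018) against CTL.

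The list of glutathione synthesis and turnover held 10 genes, among them Ggt1, Chac1 and Chac2, which break glutathione down. NASH+ISO had 7 lower and 1 higher than in CTL, NASH had 7 lower and 2 higher, and between NASH+ISO and NASH 5 were lower and 2 higher. Gss, glutathione synthetase, had the largest differences, at -1.14 for NASH+ISO against NASH (adjusted p = 8.28e-06), -2.12 for NASH+ISO against CTL (adjusted p = 1.68e-07) and -0.98 for NASH against CTL. Of the genes of breakdown, Ggt1 was at -0.30 in NASH+ISO and -0.35 in NASH against CTL. Its mean of 2.99 stood near background, with 3 of the 6 arrays above it. Chac2 was at -0.29 in NASH+ISO and 0.14 in NASH against CTL, and Chac1 at -0.22 in NASH. These differences of Ggt1, Chac2 and Chac1 passed. Cth, which yields cysteine, was at -0.48 in NASH+ISO and -0.95 in NASH against CTL, and 0.47 between NASH+ISO and NASH. Gsr, which recycles oxidised glutathione, was higher than CTL by 0.34 in NASH+ISO and by 0.86 in NASH. Targets of NRF2 outside conjugation, 4 genes, were all higher in NASH than in CTL and all lower in NASH+ISO than in NASH. Srxn1 had the largest differences from CTL, with -0.39 between NASH+ISO and NASH, 1.48 between NASH+ISO and CTL and 1.87 between NASH and CTL (adjusted p = 9.83e-08), and Nqo1 and Txnrd1 gave 0.52 and 0.33 in NASH against CTL. Hmox1 gave 0.23 in NASH against CTL. Between NASH+ISO and NASH, Txnrd1 had the largest difference of the 4, at -0.48. Gclc and Gclm, of the glutathione list, did not share the rise over CTL. They were at -0.61 and -0.47 in NASH and at -0.76 and -0.78 in NASH+ISO, against CTL. Between NASH+ISO and NASH they were at -0.14 and -0.31. Nfe2l2, the gene of NRF2, was named after its values were seen: it was 0.83 higher than CTL in both diseased groups, and NASH+ISO and NASH differed by -0.01 (adjusted p = 0.909).

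Regulators of conjugation, 12 genes, gave 4 higher and 7 lower for NASH+ISO and 4 higher and 6 lower for NASH against CTL. Between NASH+ISO and NASH, 3 were higher and 4 lower (25.0% and 33.3%), beside 23.8% and 24.1% of all probe sets above background. Hnf4a, a receptor of hepatocyte genes, was at -0.85 in NASH+ISO and -1.21 in NASH against CTL, and 0.36 between NASH+ISO and NASH. Nr1i2, the pregnane X receptor, was at -0.48 in NASH+ISO and -1.18 in NASH against CTL, and was higher in NASH+ISO than in NASH by 0.70 (adjusted p = 3.73e-05). Ahr, the receptor for dioxin, was at -1.16 in NASH+ISO and -0.72 in NASH against CTL. The exporters of conjugates, 5 genes, gave 3 higher and 1 lower in each comparison with CTL, with Abcc3 at -1.63 in NASH+ISO and -1.36 in NASH, Abcc4 at 1.45 and 1.60, and Abcg2 at 0.16 and 0.58. In the list of 10 other conjugating enzymes, 4 were higher and 6 lower than CTL in NASH+ISO, and 3 higher and 6 lower in NASH. As3mt, which methylates arsenic, was at 1.61 in NASH+ISO and 1.81 in NASH, Nnmt, which methylates nicotinamide, at -1.34 and -1.74, and Glyat, of glycine conjugation, at -0.87 and -0.50.

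**Figure D4:**
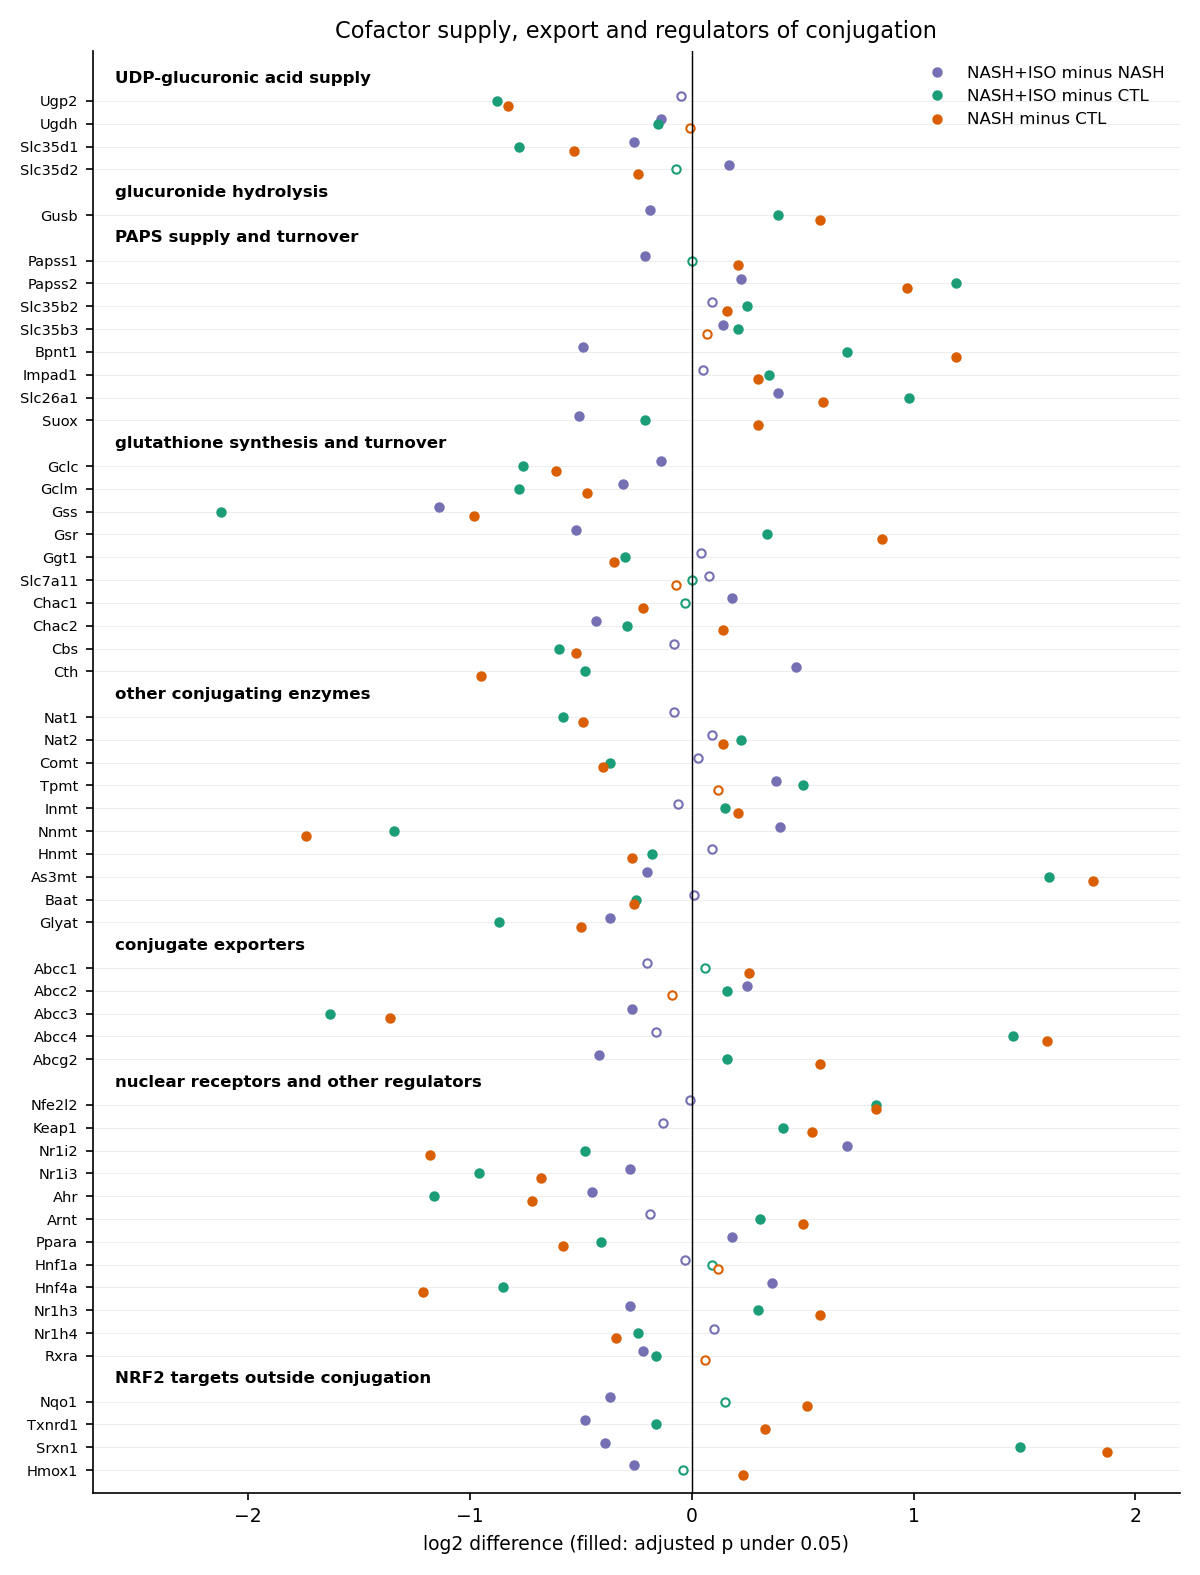
Log2 differences of 54 genes of cofactor supply, other conjugation, export and regulation, by list, for NASH+ISO minus NASH, NASH+ISO minus CTL and NASH minus CTL (1 probe set per gene). Filled points passed at adjusted p. Gss lies farthest to the left, at -2.12 for NASH+ISO against CTL, and Srxn1 farthest to the right, at 1.87 for NASH against CTL.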

How the data were processed

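Liver RNA of NASH+ISO, NASH and CTL mice was measured on 6 arrays. The authors deposited log2 values made with RMA in Affymetrix Expression Console, which removes background and equalizes array distributions, so arrays stand on a common scale. The deposited workbooks also hold group means, SDs, fold changes and p-values of the authors' comparisons in Transcriptome Analysis Console, which were not used; their gene symbols named the probe sets, and their log2 values, differing by -0.0986 to -0.101 on average, served as an alternative. With 2 arrays per group, precision is limited by their number.

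Of 45141 entries, 104 were controls and 45037 were tested with limma 3.58.1 in R 4.3.3 (a mean per group, all 6 arrays in 1 fit with 3 residual degrees of freedom; the prior had 4.01 and an SD of 0.0487; Benjamini-Hochberg adjustment over all probe sets). For other genes, the probe set with the highest mean was taken. The script was tested on simulated data. Replicate numbers did not pair the arrays: deviations correlated by 0.0465 to 0.0916. Gene order and promoters came from RefSeq tables of GRCm38.p6, in which 46 of 46 member symbols matched and 41 had a promoter. Tables and figures used Python 3.11.15, numpy 2.4.6, pandas 2.3.3 and matplotlib 3.10.9.

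Genes named are members at 2-fold and adjusted p in any comparison, in each family the probe set with the highest mean and the above-background one with the largest difference, other probe sets of a named gene that differ in direction, and up to 3 genes of each list with the largest difference among those that passed. Ugt2b34, Ugt2b36, Gclc, Gclm, Hmox1, Nfe2l2, the other genes of the chromosome runs and the promoters shown were chosen after values or matches were seen. Members, lists and this rule were chosen with earlier results of these data known. Alternatives were a fit of the 4 arrays compared, no moderation, a prior following the mean level, median centring, quantile normalization, brighter probe sets, 1 probe set per gene symbol, unadjusted p at 2-fold, workbook values, the replicate block and leaving out each array. Background correction was not varied, since scanner values were not used here. A further list of cell type markers is not reported here.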

Additional observations from a re-analysis of the deposited data

How the results depend on the processing

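Counts of members called were kept within 1.5 times by most alternatives. With quantile normalization on top of RMA, the members called higher at 2-fold were 3 for NASH+ISO and 3 for NASH, both against CTL, in place of 5 each. With 1 probe set per gene symbol, those of NASH against CTL were 3 in place of 5, and those higher at adjusted p 10 in place of 16, since fewer probe sets were counted (45 in place of 58). Without CTL replicate 1, 3 were called higher at 2-fold in NASH+ISO against CTL. Leaving out each array in turn gave, in NASH+ISO against NASH, 8 to 10 higher and 19 to 23 lower at adjusted p, and 0 to 0 in either direction at 2-fold. In NASH+ISO against CTL it gave 14 to 16 higher and 24 to 25 lower, and 3 to 5 higher and 8 to 9 lower at 2-fold. In NASH against CTL it gave 13 to 16 higher and 26 to 28 lower, and 5 to 6 higher and 3 to 3 lower at 2-fold. With the replicate block, 11 were higher and 23 lower in NASH+ISO against NASH and 16 higher and 26 lower in NASH+ISO against CTL. The block changed no other count of calls by over 1.5 times.

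Of the values of named members under the alternatives, 1183 kept direction and side of the threshold, 27 lost the threshold, 27 gained it and 8 changed sign. The changes of sign concern differences that did not pass. Mgst3 in NASH+ISO against NASH (0.00) was -0.03 with median centring and -0.08 with workbook values, and -0.06 to 0.07 over the arrays left out (-0.06 without NASH replicate 1). Mgst1 (1415898_PM_at) in NASH+ISO against CTL (-0.02) was 0.04 with workbook values, and -0.11 to 0.06 over the arrays left out (0.03 without CTL replicate 1). Gstz1 in NASH against CTL (0.11) was -0.01 with quantile normalization. The cause was not tested.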
